A study of Mus musculus with 5 samples.

Results

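The heart muscle cell moves calcium in and out of its cytosol with every beat. Calcium entering through the surface membrane opens the ryanodine receptor of the sarcoplasmic reticulum, the internal calcium store, and the released calcium drives contraction. A pump returns most of it to the store under the control of small inhibitory proteins, and an exchanger in the surface membrane expels the rest in return for sodium. The genes described here are the 10 that encode this release, reuptake and exchange machinery: Slc8a1, Ryr2, Casq2, Trdn, Asph, Hrc, Jph2, Atp2a2, Pln and Sln. They were taken as every probe set whose platform annotation names exactly 1 of these genes, which gave 33 probe sets of 45037 non-control ones and 10 genes of 18193.

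RNA of whole hearts was profiled on Affymetrix whole-genome mouse arrays, which report a transcript through groups of short oligonucleotides called probe sets. The 3 tested hearts came from untreated female NZB_W mice, the NZB/W F1 hybrid that develops spontaneous lupus nephritis, aged 12 to 15 weeks and with moderate kidney injury by Austin scoring. The 2 control hearts came from untreated female NZW mice of matched age with healthy kidneys, and NZW is one of the parental strains of the hybrid. The comparison was run as a pilot search for genes that change in the heart during lupus nephritis. Every comparison is thus of strain and nephritis at once, and the 2 cannot be told apart. The arrays are labelled as biological replicates. With 3 against 2 of them, all intervals are wide.

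Cardiomyocyte transcripts were bright on every array: all 8 marker genes of that list lay above the array median, and their summed level was 16.97, 17.02 and 16.95 (log2) on NZB_W arrays 1, 2 and 3, against 17.0 and 17.03 on the NZW arrays. Its strongest members, such as Myh6 at 14.09 to 14.18 in NZB_W and 14.25 in NZW, lay close to the array maxima of 14.24 to 14.33, so this sum cannot show an equal share of cardiomyocytes. Array 3 of the NZB_W group and array 2 of the NZW group stood apart on the control probe sets for beta-actin, where the 5' minus 3' difference was -1.31 and -1.19 (log2), against -0.883 to -0.892 on the other 3. The GAPDH 5' minus 3' difference was -0.156 on NZB_W array 3 and 0.0479 to 0.172 on the other 4, and the 18S rRNA control read 12.69 on NZW array 2 and 9.97 to 10.47 on the other 4. The summed level of fibroblast markers was also highest on NZB_W array 3, at 13.77 against 12.9 to 13.23 on the other 4. That of smooth muscle markers was 11.36 there, against 10.42 to 10.65. All 5 macrophage markers had a higher mean in NZB_W hearts, with summed levels of 11.09, 11.07 and 11.83 on the NZB_W arrays against 11.05 and 10.58 on the NZW arrays, and none of them passed the test. Erythroid markers differed most: their summed level was 9.96, 8.11 and 10.49 on the NZB_W arrays against 7.39 and 7.19 on the NZW arrays, over 3 of 4 listed genes. Alas2, the first enzyme of heme synthesis in red cell precursors, was apart by 2.19 (SE 0.733) and Slc4a1, the red cell anion exchanger, by 2.71 (SE 1.11), with no overlap between groups and a limma adjusted p of 0.873 for both. Slc4a1 ran from 4.87 to 8.33 within the NZB_W group. The third measured marker, Hba-a1, was dim at 2.92 to 3.07 in NZB_W and 2.79 to 2.88 in NZW, so the sum rests on Alas2 and Slc4a1. The part of these transcripts in the members' values was not tested. Since whole hearts were measured, fewer cells of a type and less RNA per cell cannot be told apart in any value below.

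Differences are given on the log2 scale as NZB_W minus NZW, with the standard error (SE) from limma, a linear model fitted to all 45037 probe sets, and with p-values adjusted by the Benjamini-Hochberg method over all of them against a threshold of 0.05. No member probe set passed, the lowest adjusted p being 0.494, and 2 probe sets in the whole table passed (0.00444%). At an unadjusted p under 0.05 there were 4 member probe sets of 33, against 4.02% of all probe sets. Of these, 1 was higher in NZB_W hearts and targets Slc8a1 (1.85% of all in that direction), and 3 were lower and all target Trdn (2.17% of all), so those 3 are not independent of each other. The median difference was -0.063 over the 33 member probe sets and 0 over all probe sets. In 2 member probe sets every NZB_W array lay above both NZW arrays, against 5.76% of all, and in 6 every NZB_W array lay below both, against 6.53%. Of the 33, 29 exceeded the median of their array on at least 2 arrays, and the other 4 were 2 probe sets of Slc8a1, 1 of Asph and 1 of Sln. All 8 without overlap were among the 29. Over all probe sets that met that brightness rule, 6.96% lay above and 9.66% below without overlap, and 3.35% were lower at an unadjusted p under 0.05. Their median difference was -0.013, against -0.063 over the 29 members that met it.

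**Figure D1:**
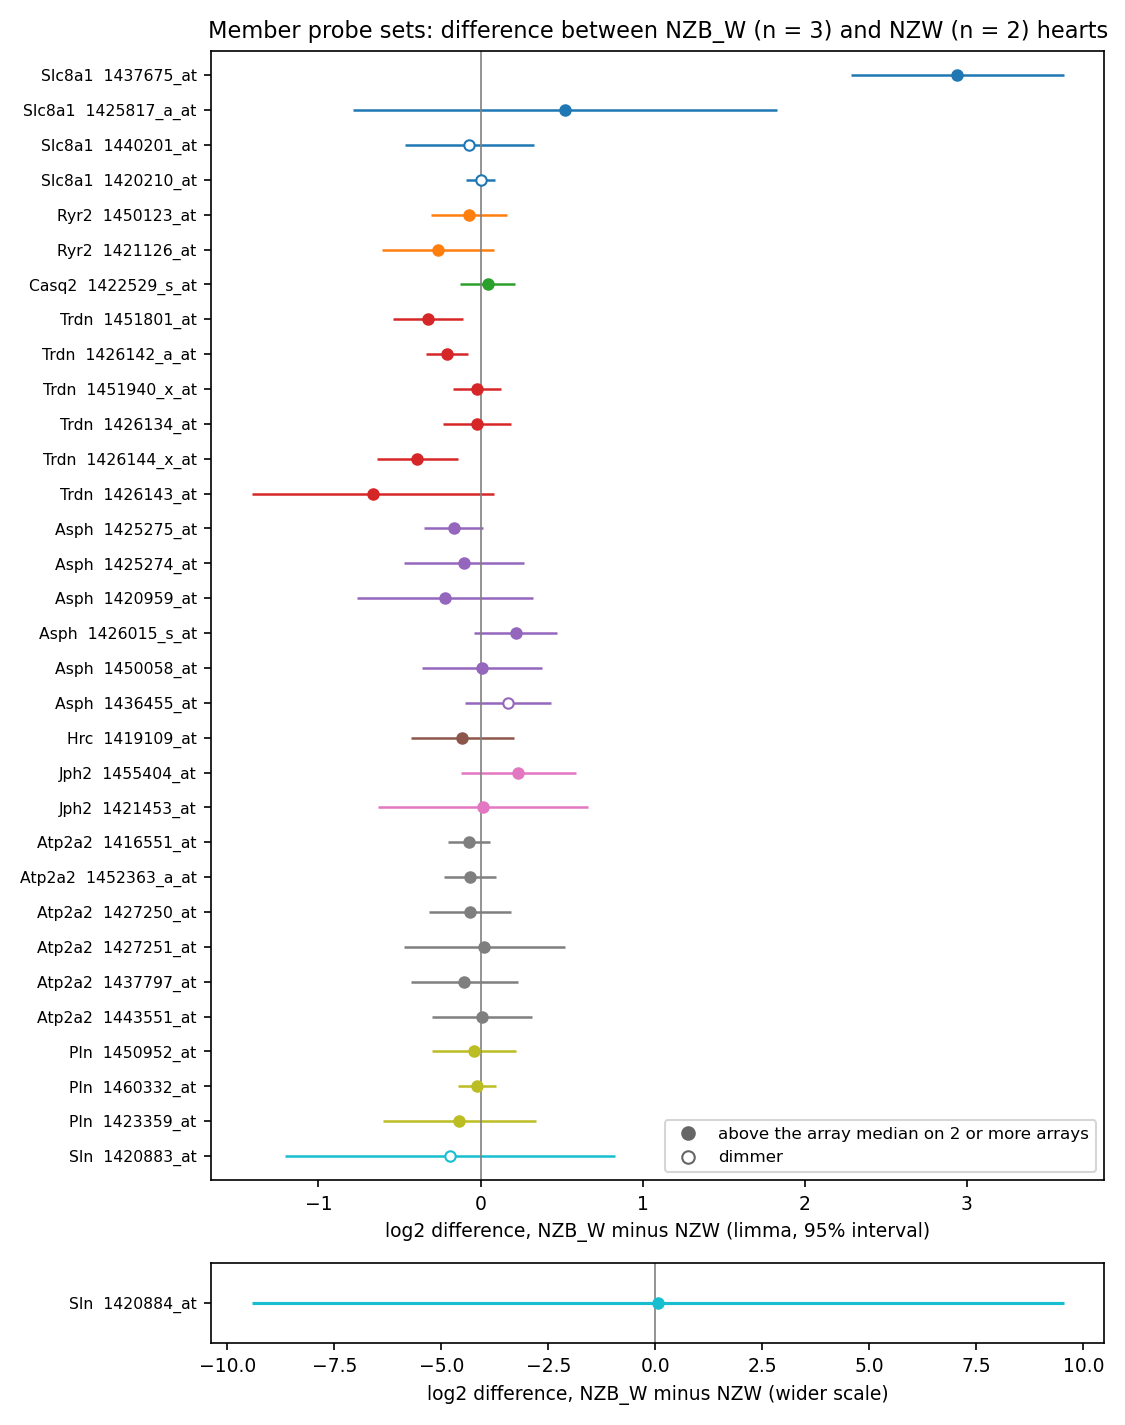
Log2 difference (NZB_W minus NZW) of each of the 33 member probe sets on the x axis, with limma's 95% interval as a bar; open points are the 4 probe sets that did not exceed the array median on 2 or more arrays, and Sln 1420884_at has its own wider axis. Slc8a1 1437675_at stands at 2.94, and the other 32 lie between -0.66 and 0.52.

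Slc8a1 encodes NCX1, the sodium-calcium exchanger that is the main route of calcium extrusion from heart muscle cells. Its brightest probe set, 1437675_at, carried the widest difference of any member. It read 7.78, 8.08 and 8.47 on NZB_W arrays 1, 2 and 3, against 5.01 and 5.33 on the NZW arrays. Every NZB_W array was more than 2 log2 units above both NZW arrays. Its mean was 8.11 ± 0.343 over the 3 NZB_W hearts and 5.17 ± 0.225 over the 2 NZW hearts (± SD), a difference of 2.94 (SE 0.241, 95% interval 2.28 to 3.60), or 7.68-fold. With an unadjusted p of 0.000197 it did not pass after adjustment (limma adjusted p = 0.494). Of all 45037 probe sets, 11 had a larger absolute difference and 17 a smaller p. Omitting any 1 array gave 2.76 to 3.10.

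The other Slc8a1 probe sets did not show a difference of that size. The probe set 1425817_a_at, whose suffix marks a design that can detect several transcripts of 1 gene, was also above the median on all 5 arrays. It read 6.87, 7.05 and 6.12 on the NZB_W arrays, against 6.73 and 5.58 on the NZW arrays. The groups overlapped, with a difference of 0.52 (SE 0.479, 95% interval -0.78 to 1.83, limma adjusted p = 0.879). Its lowest values were on NZB_W array 3 and NZW array 2, the arrays with the lowest beta-actin 5' minus 3' difference. The part of that difference in the result was not tested.

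The 2 remaining Slc8a1 probe sets were dim. The probe set 1440201_at read 3.36, 3.50 and 3.72 in NZB_W hearts, against 3.73 and 3.46 in NZW hearts, and 1420210_at had 1 value, 3.27, on all 5 arrays, as 698 of all probe sets had a single value throughout. Neither exceeded the array median on any array. They differed between the groups by -0.070 (SE 0.146) and 0.

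**Figure D2:**
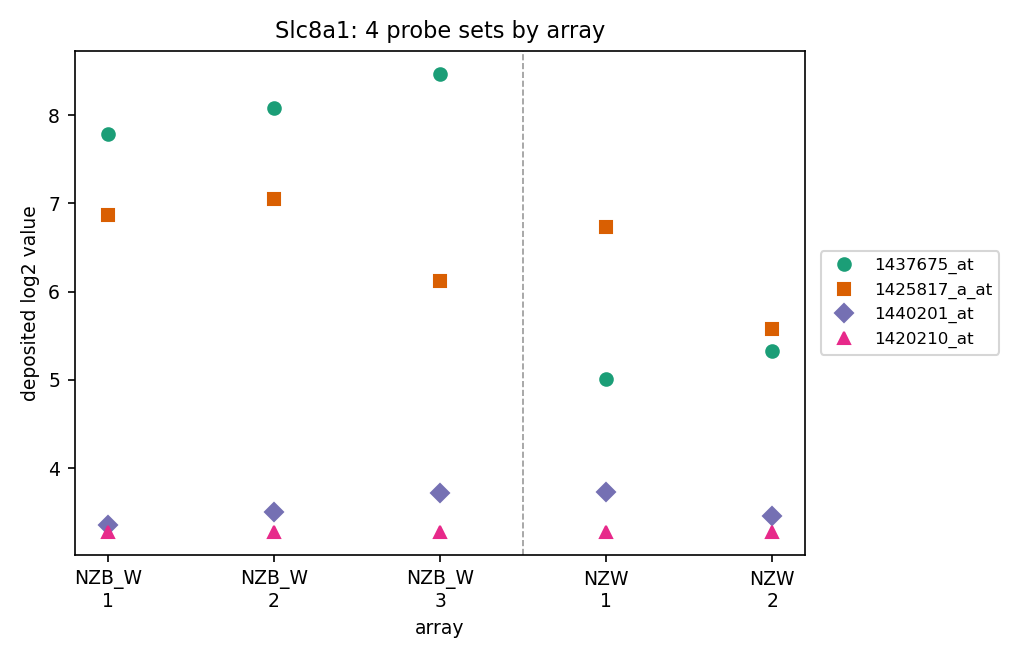
Deposited log2 value (y axis) of the 4 Slc8a1 probe sets on each array (x axis, NZB_W arrays left of the dashed line and NZW arrays right of it). Of these, 1437675_at separates the groups, at 7.78 to 8.47 in NZB_W against 5.01 to 5.33 in NZW.

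Probe sets of a gene were also set against each other. For every gene with several probe sets, the value of each other probe set minus that of the brightest one was taken on each array and compared between the groups with limma, over 16752 such within-gene differences. Of all of them 0.0597% passed and 4.36% had an unadjusted p under 0.05, and of the 23 from 8 member genes 2 passed and 5 had an unadjusted p under 0.05. Both that passed, and 3 of those 5, belong to Slc8a1 and share the reference 1437675_at, which is the brightest of its gene through the NZB_W arrays alone: it averaged 8.11 in NZB_W against 5.17 in NZW, and 1425817_a_at averaged 6.68 in NZB_W against 6.16 in NZW. These counts are therefore no evidence beyond the difference of 1437675_at itself.

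The 2 that passed set 1437675_at against the dim 1440201_at (-3.01, SE 0.204, limma adjusted p = 0.0115) and the invariant 1420210_at (-2.94, SE 0.222, adjusted p = 0.0193). Neither dim probe set exceeded the array median on any array, so both values restate the difference of 1437675_at with the sign turned and do not test whether the probe sets disagree. Leaving out NZB_W array 1 or 2 ended both calls, with limma adjusted p of 0.0887 to 0.2. Taking the mean of the other probe sets as the reference ended them as well (0.0933 and 0.117). Between the 2 bright probe sets, 1425817_a_at minus 1437675_at was -0.92, -1.03 and -2.35 on the NZB_W arrays, against 1.72 and 0.25 on the NZW arrays. These values did not overlap, but the change of -2.42 (SE 0.576, 95% interval -3.82 to -1.01, unadjusted p = 0.00553) did not pass (limma adjusted p = 0.860). The large Slc8a1 difference was thus seen in 1 of the 2 bright probe sets, and a disagreement between those 2 was not shown. Where in the gene they lie was not analysed here.

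Of the 18193 genes, each by its brightest probe set, Mtm1, Clec4a3 and Sdc4 had the pattern over the 5 arrays most like that of Slc8a1 1437675_at. Likeness was the root mean square distance between values centred on their mean. Mtm1, which encodes the phosphoinositide phosphatase myotubularin, was the nearest at a distance of 0.293, with 9.19, 9.15 and 9.10 in NZB_W against 5.90 and 5.95 in NZW. Clec4a3, a myeloid C-type lectin receptor, lay at 0.621, with a mean of 7.05 in NZB_W against 5.12 in NZW. Sdc4, the cell surface proteoglycan syndecan 4, lay at 0.625, with a mean of 8.97 in NZB_W against 7.20 in NZW. This is a description of 5 arrays in which the groups differ, and all 3 were chosen for their likeness.

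Ryr2 is the calcium release channel of the sarcoplasmic reticulum in heart. Its brightest probe set, 1450123_at, read 11.88, 11.95 and 12.10 in NZB_W hearts, against 12.10 and 11.99 in NZW hearts. The groups overlapped, with a difference of -0.068 (SE 0.0860, 95% interval -0.30 to 0.17, limma adjusted p = 0.896). The dimmer 1421126_at lay at 6.81, 6.84 and 6.54 in NZB_W, against 7.10 and 6.89 in NZW. Every NZB_W value was below both NZW values there, by a mean of -0.26 (SE 0.127, limma adjusted p = 0.877), and the probe sets did not differ detectably from each other (-0.19, 95% interval -0.62 to 0.23).

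Trdn encodes triadin, the membrane protein that links the release channel to the calcium-binding protein calsequestrin inside the store. It was represented by 6 probe sets, all above the array median on all 5 arrays, and all 6 had a negative difference. So did 12317 of the 22819 probe sets that exceeded the array median on at least 2 arrays. In 4 of the 6 every NZB_W array lay below both NZW arrays, against 9.66% of those 22819. Probe sets of 1 gene are not independent of each other, so these are not counts of separate results. The annotation assigns the 6 probe sets to 3 GenBank mRNA records, and is the basis for describing them in 3 sets. The probe sets of the first record differed by -0.023 and -0.021, the 1 of the second by -0.32, and the 3 of the third by -0.66 to -0.21.

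The brightest Trdn probe set, 1451801_at of the second record, read 11.29, 11.18 and 11.14 in NZB_W hearts, against 11.61 and 11.45 in NZW hearts. All 3 NZB_W values were lower than both NZW values. The difference was -0.32 (SE 0.0792, 95% interval -0.54 to -0.11), or 1.25-fold lower, with an unadjusted p of 0.0138 that did not pass (limma adjusted p = 0.877).

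In the third record, 1426142_a_at had the narrowest spread, with 9.60, 9.58 and 9.55 in NZB_W against 9.74 and 9.83 in NZW. The groups were apart by -0.21 (SE 0.0471, unadjusted p = 0.0107, limma adjusted p = 0.877). The probe set 1426144_x_at, whose suffix marks probes that may bind other transcripts, read 8.53, 8.54 and 8.50 in NZB_W against 9.05 and 8.78 in NZW. Here too the groups did not overlap, at -0.39 (SE 0.0916, unadjusted p = 0.0118, limma adjusted p = 0.877), or 1.31-fold lower.

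The widest Trdn difference, in 1426143_at, was also the most variable. It read 7.81, 7.98 and 8.39 in NZB_W hearts, against 9.03 and 8.41 in NZW hearts. The highest NZB_W value and the lower NZW value were almost equal, so the groups were only just apart. The difference was -0.66 (SE 0.274, 95% interval -1.41 to 0.083, unadjusted p = 0.0696, limma adjusted p = 0.877). It was -0.35 without NZW array 1 and -0.97 without NZW array 2. Within each group this probe set was highest on the array where the atrial transcripts described below were highest, and their part in its difference was not tested.

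The 2 probe sets of the first record showed no such shift. The probe set 1426134_at read 9.11, 9.15 and 8.98 in NZB_W against 9.04 and 9.17 in NZW, a difference of -0.023 (95% interval -0.23 to 0.19). Its partner 1451940_x_at read 9.15, 9.16 and 9.07 in NZB_W against 9.10 and 9.19 in NZW, a difference of -0.021 (95% interval -0.17 to 0.13). The groups overlapped in both, and both intervals overlapped that of 1451801_at (-0.54 to -0.11).

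Set against 1451801_at within each array, these 2 probe sets were relatively higher in NZB_W hearts by 0.30 (SE 0.133, unadjusted p = 0.0650) and 0.30 (SE 0.124, unadjusted p = 0.0503). Neither passed over all within-gene differences (limma adjusted p = 0.9999 for both), so a difference between the Trdn probe sets was not shown. Both values share the reference 1451801_at, itself lower in NZB_W (-0.32), and come from 1 record. They are therefore not independent of that difference or of each other. The 3 probe sets of the third record differed from 1451801_at by -0.34 to 0.12, with unadjusted p of 0.220 to 0.558.

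**Figure D3:**
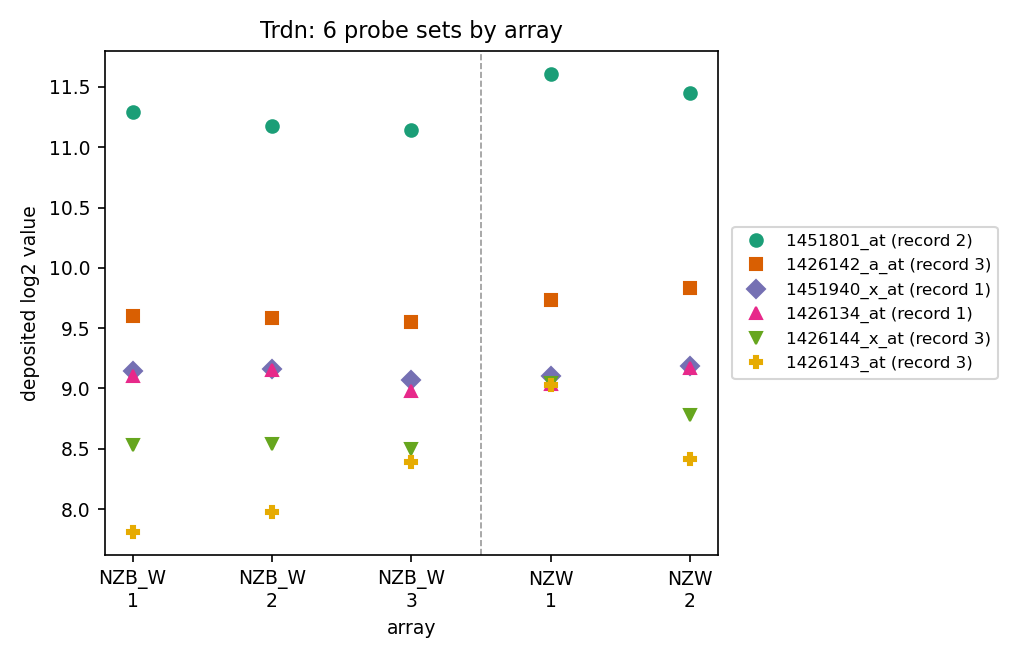
Deposited log2 value (y axis) of the 6 Trdn probe sets on each array (x axis, NZB_W left and NZW right of the dashed line), with the annotated mRNA record of each in the legend. The probe sets of records 2 and 3 lie lower on every NZB_W array than on both NZW arrays, and the 2 of record 1 overlap at 8.98 to 9.16 in NZB_W and 9.04 to 9.19 in NZW.

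Casq2 encodes cardiac calsequestrin, the main calcium buffer inside the store. Its 1 probe set read 12.01, 12.03 and 12.16 in NZB_W hearts, against 12.02 and 12.03 in NZW hearts. The groups overlapped, and the difference of 0.044 (SE 0.0621) had a 95% interval of -0.13 to 0.21. Hrc encodes the histidine-rich calcium-binding protein, which sits in the same compartment and binds triadin. It read 12.11, 12.24 and 11.90 in NZB_W against 12.23 and 12.17 in NZW, a difference of -0.11 (SE 0.117, 95% interval -0.43 to 0.21). Its lowest value was on NZB_W array 3.

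Asph is a locus with several products, among them the hydroxylase that names it and junctin, a partner of triadin at the release channel. Its 6 probe sets had differences from -0.22 to 0.22 and none passed. The brightest, 1425275_at, read 10.24, 10.35 and 10.32 in NZB_W against 10.40 and 10.54 in NZW. All NZB_W arrays lay below both NZW arrays, at -0.16 (SE 0.0666, unadjusted p = 0.0660, limma adjusted p = 0.877).

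The Asph probe set 1426015_s_at went the other way, with 8.64, 8.67 and 8.85 in NZB_W against 8.43 and 8.59 in NZW. All NZB_W arrays were above both NZW arrays there, at 0.22 (SE 0.0939, limma adjusted p = 0.877). Relative to 1425275_at on the same array it was higher in NZB_W by 0.38 (SE 0.115, unadjusted p = 0.0159, limma adjusted p = 0.9999), which did not pass. The dim 1436455_at, at 4.13 to 4.30 in NZB_W and 3.91 to 4.13 in NZW, was higher by 0.33 on the same measure (SE 0.129, unadjusted p = 0.0410, limma adjusted p = 0.9999). Both values share the reference 1425275_at, itself lower in NZB_W, so they are not independent of its difference or of each other. The other 3 Asph probe sets differed by -0.22 to 0.0085, and their groups overlapped.

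Jph2 encodes junctophilin 2, which holds the store close to the surface membrane so that entering calcium reaches the release channel. Its brighter probe set, 1455404_at, read 10.19, 10.41 and 10.44 in NZB_W hearts, against 10.26 and 9.97 in NZW hearts. The groups overlapped, with a difference of 0.23 (SE 0.130, 95% interval -0.12 to 0.59, limma adjusted p = 0.877). The second, 1421453_at, read 7.55, 7.61 and 7.13 in NZB_W against 7.68 and 7.14 in NZW, a difference of 0.015 (SE 0.238). Its low values were again on NZB_W array 3 and NZW array 2.

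In 5 of the 33 member probe sets NZB_W array 3 and NZW array 2 were the 2 lowest arrays, by order and not by depth. They were 1425817_a_at of Slc8a1, 1421453_at of Jph2, 1427251_at of Atp2a2, and 1450952_at and 1423359_at of Pln. For the last 3, NZW array 2 was only slightly below NZW array 1 (8.52 against 8.61, 13.86 against 13.88, and 13.76 against 13.79). Of all non-control probe sets 8.68% had the same order, and of those above their array median on at least 2 arrays 10.4%, against 17.2% of the 29 such member probe sets. Both arrays carried the lowest beta-actin 5' minus 3' difference, and its part in these values was not tested.

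Atp2a2 encodes SERCA2, the pump that returns calcium to the store, and its transcript was among the brightest on the arrays. Its main probe set, 1416551_at, exceeded 99.99% of probe sets in mean level. It read 13.97, 14.05 and 13.95 in NZB_W hearts, against 14.05 and 14.08 in NZW hearts. The difference was -0.073 (SE 0.0474, 95% interval -0.20 to 0.056, limma adjusted p = 0.877), and the groups overlapped.

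All 6 Atp2a2 probe sets overlapped between the groups, with differences of -0.10 to 0.024. The second brightest, 1452363_a_at, gave -0.065 (95% interval -0.23 to 0.098). Of the within-gene differences, all 5 fell between -0.027 and 0.098 with unadjusted p of 0.526 or more, so none was detectable. The shared reference 1416551_at, at 13.95 to 14.05 in NZB_W and 14.05 to 14.08 in NZW, lay close to the array maxima, which limits what these differences can show.

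Pln encodes phospholamban, the small membrane protein that slows SERCA2 until it is phosphorylated. Its 3 probe sets overlapped between the groups, and each exceeded at least 99.95% of all probe sets in mean level. They lay near the array maxima of 14.24 to 14.33, which limits what their differences can show. The brightest, 1450952_at, read 13.92, 13.89 and 13.67 in NZB_W against 13.88 and 13.86 in NZW. Only NZB_W array 3 departed from the other 4, and the difference was -0.040 (SE 0.0953, 95% interval -0.30 to 0.22).

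The probe set 1423359_at of Pln read 13.81, 13.78 and 13.33 in NZB_W against 13.79 and 13.76 in NZW, with the same array low, a difference of -0.13 (SE 0.173). The third, 1460332_at, was steady at 13.65 to 13.74 in NZB_W and 13.72 on both NZW arrays (-0.022, SE 0.0436).

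Sln encodes sarcolipin, a second small inhibitor of the pump, which in the mouse heart is known as an atrial transcript. Its bright probe set, 1420884_at, read 3.89, 8.82 and 11.77 on NZB_W arrays 1, 2 and 3, against 11.91 and 4.28 on the NZW arrays. Each group held both a dim array and a very bright one. The difference between groups was 0.060 (SE 3.48) with a 95% interval from -9.43 to 9.54, an interval too wide to show a difference in either direction. The pooled SD within groups was 4.50, and 1 probe set of 45037 had a larger one. The second Sln probe set, 1420883_at, was dim at 3.84 to 4.17 in NZB_W and 3.61 to 4.74 in NZW.

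Markers of atrial muscle were listed to set beside Sln, and all 6 were measured. Myl7, the atrial regulatory light chain of myosin, read 3.87, 10.24 and 13.01 in NZB_W hearts, against 13.14 and 4.76 in NZW hearts. Myl4, the atrial essential light chain, read 5.09, 9.60 and 12.34 in NZB_W against 12.61 and 4.84 in NZW. Both were low and high on the same arrays as Sln.

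Dkk3, a secreted protein related to the dickkopf family, read 4.47, 5.27 and 8.41 in NZB_W against 8.71 and 4.25 in NZW, in the same pattern. Kcnj3, a subunit of the acetylcholine-activated potassium channel, spanned 7.80 to 8.84 in NZB_W hearts, against 8.60 to 9.47 in NZW hearts. Nppa, atrial natriuretic peptide, which stressed ventricles also make, was bright throughout at 13.16 to 13.96 in NZB_W and 12.77 to 13.70 in NZW. Bmp10, a growth factor of atrial muscle, was dim at 4.19 to 4.33 in NZB_W and at 5.96 and 4.19 in NZW.

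The summed level of the 6 markers was 13.4, 13.5 and 14.9 (log2) in NZB_W and 14.9 and 12.9 in NZW, so the groups overlapped. Nppa, at 13.31 on NZB_W array 1 and 12.77 on NZW array 2, made up nearly all of the sum there. The sum is therefore not a measure of atrial tissue. On NZB_W array 1 and NZW array 2 both light chains lay near or below the array medians of 4.62 to 4.68. Whole hearts is the description in the protocols, and whether the samples of these arrays held atrial tissue was not tested. Whether more atrial tissue or more RNA per atrial cell lay behind the high arrays cannot be told apart, and the part of these transcripts in the other members' values was not tested. Slc8a1 1437675_at read 7.78, 8.08 and 8.47 on NZB_W arrays 1, 2 and 3, where Sln 1420884_at read 3.89, 8.82 and 11.77. On NZW arrays 1 and 2 it read 5.01 and 5.33, where Sln read 11.91 and 4.28.

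**Figure D4:**
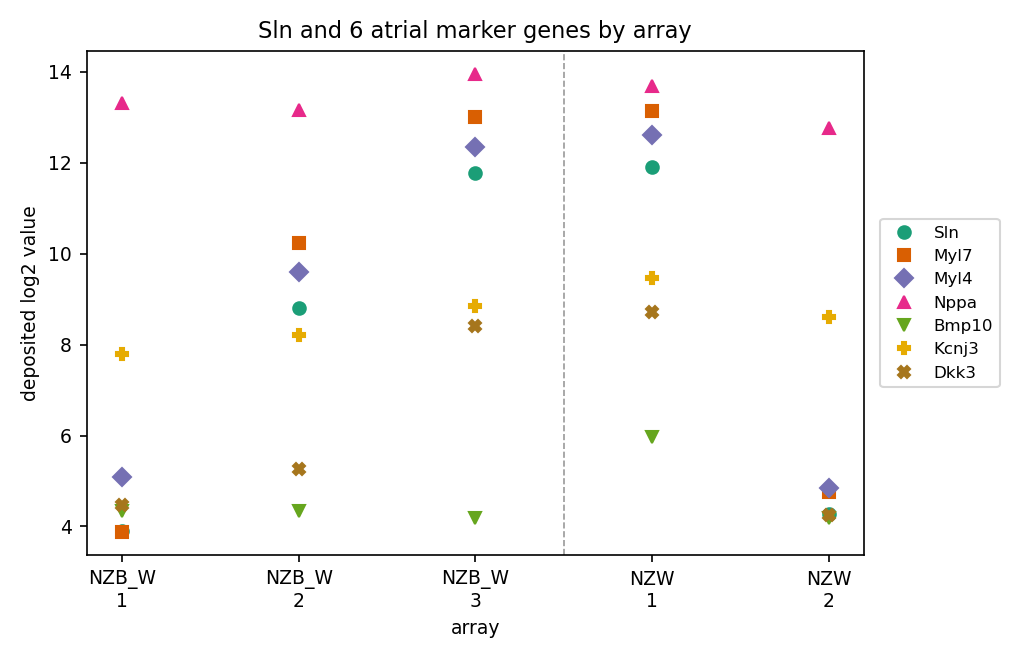
Deposited log2 value (y axis) of Sln 1420884_at and of the brightest probe set of each of 6 atrial marker genes on each array (x axis, NZB_W left and NZW right of the dashed line). Sln, Myl7, Myl4 and Dkk3 are high on NZB_W array 3 and NZW array 1 and low on NZB_W array 1 and NZW array 2.

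A list of 68 other genes of cardiac calcium handling gave the surroundings, of which 57 were measured by a probe set with 1 symbol and 11 were not analysed here. Each gene was taken by its brightest probe set, with p adjusted over 18193 genes, of which 1 passed (0.0055%). None of the 57 passed, and 2 had an unadjusted p under 0.05, both lower in NZB_W hearts, against 2.46% of all genes in that direction. In 2 of the 57 every NZB_W array was above both NZW arrays (6.64% of all genes), and in 3 every one was below (7.48%). Their median difference was -0.023, against -0.0012 over all genes. By role, 16 further release genes had a median of -0.021, 9 calcium entry genes -0.11, 15 reuptake and extrusion genes 0, and 17 regulatory genes -0.033.

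The 2 genes of that list with an unadjusted p under 0.05 were Pde4d and Letm1. Pde4d, a phosphodiesterase that breaks down cyclic AMP, read 8.27, 8.34 and 8.34 in NZB_W against 8.72 and 8.54 in NZW (-0.31, SE 0.0744, limma adjusted p = 0.873). Letm1, a mitochondrial inner membrane protein of cation exchange, read 7.22, 7.56 and 7.41 in NZB_W against 7.71 and 7.85 in NZW (-0.38, SE 0.122, limma adjusted p = 0.873). Neither group overlapped with the other in these genes. The 3 other Letm1 probe sets differed by -0.14 to 0.031, and the other Pde4d one, which was dim, by 0.22 (SE 0.533).

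The next 6 by p did not pass either. Casq1, the skeletal muscle calsequestrin, had a mean of 6.84 in NZB_W against 6.28 in NZW (0.55, SE 0.226). Ppp1ca, a catalytic subunit of the phosphatase that acts on phospholamban, had 10.80 in NZB_W against 10.67 in NZW (0.13, SE 0.0564). Rrad, a small GTPase that restrains the L-type calcium channel, had a mean of 9.74 in NZB_W against 10.16 in NZW (-0.42, SE 0.202). Cacna1h, a T-type calcium channel subunit, had 5.65 in NZB_W against 6.44 in NZW (-0.79, SE 0.503). The Cacna1h difference hung on the NZW arrays, which read 7.07 and 5.80: it was -0.16 without NZW array 1 and -1.42 without NZW array 2.

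Relatives of the pump and the exchanger did not pass. Atp2a3, the SERCA3 pump, had a mean of 6.89 in NZB_W against 6.62 in NZW (0.26, SE 0.139), while its other probe set gave -0.0032 (SE 0.130). Slc8a3, a sodium-calcium exchanger of skeletal muscle and brain, was dim at 4.003 in NZB_W and 3.83 in NZW.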

How the data were processed

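Whole-heart RNA (6 µg per sample, Trizol extraction) was labelled with biotin for Affymetrix whole-genome mouse arrays, as the labels' protocols state. The deposited values are log2 expression levels, 1 per probe set and array, normalized together by the authors, and per the submitters' processing notes RMA, GCRMA and Partek were used, with roles and versions not given in the sources used here. Array medians ran from 4.62 to 4.68, and 39.2% to 44.3% of an array's values were shared by at least 2 probe sets, so dim values are coarse. No detection calls or scanner files were used, and no coordinates are printed because the build of the probe annotation is not given.

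Groups came from the sample titles, and 0 columns belonged to no sample. Of 45101 probe sets, 64 were controls and 34945 others carried 1 gene symbol; symbols of 34741 matched RefSeq names by Entrez identifier and 0 changed. The values were tested as deposited, without a filter on dim probe sets, with limma 3.58.1 in R 4.3.3 (lmFit, eBayes, two-sided, 95% intervals). The code was checked on simulated data of the same size, with independent normal noise. There the test called 65.7%, 80.6% and 92.4% of probe sets changed by 1, 2 and 3 (log2). That noise is simpler than that of real arrays, so these shares do not measure what the test could detect in the hearts. Replicate numbers were not used as a block: deviations from the group means of same-numbered arrays correlated at -0.0132 and 0.0283. Named were all Slc8a1 and Trdn probe sets, the brightest probe set of each other member, any with an unadjusted p under 0.05 in either test, the 8 listed genes with the smallest p and the 3 genes of most like pattern; further member probe sets were named after their values were seen. The members and lists were chosen with earlier results of these data known. Figures were drawn with matplotlib 3.10.9.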

Additional observations from a re-analysis of the deposited data

How the results depend on the processing

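No member probe set and none of the other calcium handling genes passed the adjusted threshold of 0.05 under any setting that kept both NZW arrays. Slc8a1 1437675_at kept its direction in all of them, at 2.76 to 3.10, with adjusted p from 0.0863 (quantile normalization) to 0.816. Over the whole table the deposited values gave 2 probe sets under the threshold. There were 5 at a threshold of 0.1, 5 with the brightness filter and 6 with arrays centred on their median. Quantile normalization gave 5, array weights gave 4, and leaving out any single NZB_W array gave 0. Leaving out an NZW array, or both NZB_W array 3 and NZW array 2, leaves a single NZW array. Such fits cannot measure the spread of that group, so no count from them is given. By brightest probe set 1 gene passed, against 0 when a gene's probe sets were averaged, 2 without probe sets of shared or mixed design, and 0 with any single NZB_W array left out. Within-gene differences numbered 10, against 21 relative to the mean of the other probe sets, 18 with array weights, and 5 to 11 with any single NZB_W array left out. The 2 of Slc8a1 became 0 with the brightness filter, which removes both dim probe sets. They became 0 relative to the mean of the other probe sets, and 0 to 2 with single NZB_W arrays left out.

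With the replicate block the count of probe sets was 0 and that of genes 0. Same-numbered arrays share only a number, and number 3 occurs in NZB_W alone. The block therefore takes NZB_W array 3 out of each difference. Differences under the block equal those without that array, as for Slc8a1 1437675_at at 2.763 in both. The sign changes under the block are thus those of leaving out NZB_W array 3, and not a separate result. Under that block these differences, none of them called, changed sign: Casq2 -0.0035, Trdn 1451940_x_at 0.0073 and 1426134_at 0.026, Atp2a2 1427250_at 0.0035, Pln 1450952_at 0.041, 1460332_at 0.0030 and 1423359_at 0.024, and Sln 1420884_at -1.75. Centring turned Asph 1450058_at to -0.0049 and Atp2a2 1443551_at to -0.0049, and quantile normalization turned Atp2a2 1443551_at to -0.011. Array weights turned Trdn 1426134_at to 0.016, Atp2a2 1427250_at to 0.0025 and 1437797_at to 0.0014, and Pln 1450952_at to 0.0013. Without both NZB_W array 3 and NZW array 2, Trdn 1451940_x_at was 0.051 and 1426134_at 0.090, Jph2 1421453_at -0.10, Pln 1450952_at 0.032, 1460332_at 0.0030 and 1423359_at 0.0064, and Sln 1420884_at -5.56.

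With single arrays left out, these uncalled differences changed sign in at least 1 case. For Slc8a1 the ranges were -0.21 to 0.068 (1440201_at) and -0.053 to 1.10 (1425817_a_at). For Trdn they were -0.065 to 0.023 (1451940_x_at), -0.088 to 0.042 (1426134_at) and, for 1426142_a_at minus 1451801_at, -0.012 to 0.24. Casq2 ran from -0.0035 to 0.071 and Jph2 1421453_at from -0.25 to 0.28. Asph gave -0.098 to 0.11 (1450058_at) and -0.26 to 0.055 (1425274_at). Atp2a2 gave -0.078 to 0.18 (1427251_at), -0.084 to 0.085 (1443551_at) and -0.12 to 0.0035 (1427250_at). Pln gave -0.087 to 0.041 (1450952_at), -0.039 to 0.0030 (1460332_at) and -0.21 to 0.024 (1423359_at). Sln gave -3.75 to 3.87 (1420884_at) and -0.75 to 0.38 (1420883_at). The cause of these changes was not tested.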
